A study of Mus musculus with 6 samples.

Results

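Collagen chain genes were followed in eWAT (epididymal white fat, a visceral depot) of obese male mice. The members were all genes whose symbol is Col, a number, the letter a and a number, and which a row of the array names alone. Of 22180 genes named alone by a row, 44 met this rule, 11 of fibrillar types, 6 of type IV, 6 of type VI and 21 of other types. Where a gene had more than 1 row, which was so for 3 of the 44, the row with the highest mean over the 6 arrays stood for it. The arrays compared wild-type mice (WT 1 to WT 3) with mice that carry a Blnc1 transgene restricted to adipose tissue (Tg 1 to Tg 3). All 6 mice were C57BL/6 males aged 8 months, and both groups had been fed a high-fat diet for 21 weeks. The sources used here do not state the promoter of the transgene or the number of founder lines. Replicates are called biological in the labels, and an array therefore counts as 1 mouse, with 3 per group.

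Collagens are secreted proteins in which chains with a repeating glycine motif wind around each other into a rope-like helix. Fibrillar collagens form the tensile fibres of connective tissue, type IV forms the sheet of basement membranes, and type VI forms beaded filaments around cells. In fat, each adipocyte sits in a basement membrane, and stromal cells make most of the fibrillar collagen. Expansion of fat in obesity is known to be accompanied by remodelling of this matrix, and type VI is known for its abundance there.

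Across the family, no collagen gene differed between Tg and WT at an adjusted p of 0.05 or below in limma, which called 0 of all 41345 rows (0% of rows). At an unadjusted p under 0.05 there were 4 collagen genes higher in Tg and 1 lower (11.4% of the 44), where 4.43% and 5.88% of all rows, 10.3% together, reached that level. The 3 Tg arrays stood wholly above the 3 WT arrays in 6 of the 44 genes and wholly below in 4, or 22.7%, against 7.36% and 9.35% of all rows, 16.7% together. Counted by the row of highest mean of each of the 22180 genes, the background was 18.2%. The 44 genes thus lay near the background. Of the 25 collagen genes whose mean signal exceeded the median of all rows, 4 stood higher and 2 lower (24%), and of all 12788 such genes 11% stood higher and 12.8% lower, 23.8% together. An unadjusted p under 0.05 was found for 4 of those 25 (16%) and for 13.5% of the 12788. After median centring of the arrays, which moved the median of all rows from -0.01 to 0.05, the split over the 44 genes was 8 higher and 2 lower, with 17.3% of all rows apart. The median difference over the 44 genes was 0.08 on the log2 scale, against -0.01 over all rows. Single differences ran from -0.59 in Col23a1 to 0.78 in Col12a1. In direction, 27 of the 44 genes were higher and 17 lower in Tg. Of all rows 47.2% were higher, and of the 12788 genes above the median signal 46.3%. Genes read on the same 6 arrays are not independent, so the direction counts below describe and do not test.

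Before the genes are taken in turn, the state of the arrays is given. The medians of the deposited log2 values lay between 2.64 and 2.75, and Pearson's r between any 2 arrays lay between 0.979 and 0.990 across rows, which are not independent replicates. The adipocyte markers were present, with a mean level of 9.68 to 10.46 over 7 measured genes. No row carries the symbol Blnc1 (0 rows), so the genotype labels were not checked here. Tg 2 held transcripts of the epididymis: 11 measured genes of reproductive tract epithelium averaged 4.87 there while the other arrays ranged from 1.10 to 1.42. That mean came from Lcn8, Lcn9, Adam7, Rnase10, Cst11 and Defb20, at 5.39 to 9.87 in Tg 2 and at most 2.69 elsewhere. Lcn5, Rnase9, Spint4, Svs4 and Svs5 read only 0.77 to 2.15 in Tg 2, and Lcn5 was higher in WT 2, at 2.44. The 7 smooth muscle and pericyte markers did not move as one. In WT 2 and WT 3, Cnn1 (7.09 and 8.46, at most 4.77 elsewhere), Myh11 and Des were the highest of the 6 arrays, while Rgs5 (9.97 and 9.69, at least 10.10 elsewhere) and Notch3 were the lowest. Acta2 and Tagln were highest in Tg 1 and WT 3, and both were lower in WT 2 than in WT 1. Values without Tg 2, WT 2 and WT 3, a choice taken from an earlier analysis of these data, are given below where they differ, and they set WT 1 alone against Tg 1 and Tg 3, so that they describe this 1 WT array and carry no test of genotype. In whole tissue, fewer cells of a type and less RNA per cell cannot be told apart.

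**Figure D1:**
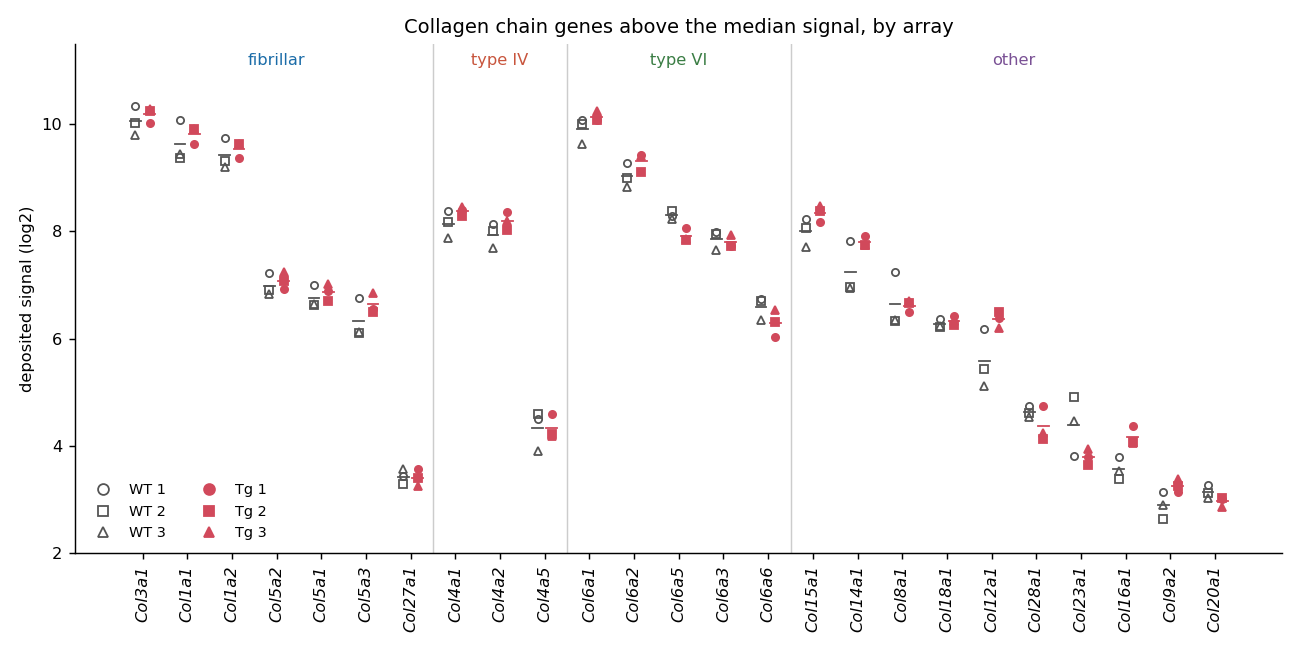
Deposited log2 signal (vertical axis) of the 25 collagen genes whose mean lay above the median of all rows, grouped by class; open grey symbols are the 3 WT arrays, filled red symbols the 3 Tg arrays, and short lines the group means. The WT symbols spread more widely than the Tg symbols in 20 of the 25 genes, and WT 1 is the highest WT array in 21.

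Of the 44 genes, 25 had a mean signal above 2.67, the median of all rows, and the remaining 19 were dim. RMA summaries compress differences between low values, so little can be read from dim genes. The plot of signals by array shows the brighter 25.

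Fibrillar collagens build the fibres of the stroma, and in these arrays the 7 of them above the median signal differed between genotypes by less than the range among the WT mice. Of the 11 genes 8 were higher and 3 lower in Tg, with a median difference of 0.11, and 0 reached an unadjusted p under 0.05 in limma. Col1a1, the main chain of type I collagen, read 10.08, 9.37 and 9.45 for WT 1, WT 2 and WT 3, against 9.63, 9.92 and 9.92 for the Tg arrays in the same order. WT 1 was thus the highest of all 6 arrays and WT 2 the lowest, and the groups overlapped. The difference was 0.19 ± 0.21 (SE, n = 3 per group; adjusted p = 0.79 in limma), with a 95% interval from -0.31 to 0.69.

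Col1a2 encodes the partner chain of type I collagen. Its signals were 9.74, 9.32 and 9.21 in WT and 9.37, 9.63 and 9.63 in Tg, with WT 1 highest and WT 3 lowest, and the difference was 0.13 ± 0.17. Col3a1, the chain of type III collagen found beside type I in soft tissue, read 10.35, 10.03 and 9.80 in WT and 10.02, 10.26 and 10.29 in Tg, a difference of 0.13 ± 0.17. The groups overlapped in both, and the 95% interval ran from -0.28 to 0.53 for Col1a2 and from -0.27 to 0.53 for Col3a1. A second, dimmer row of Col1a2 had another profile, with 6.26, 5.08 and 5.10 in WT, 5.57, 6.98 and 6.15 in Tg and Tg 2 as the highest array.

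The bases before the starts of Col1a2, Col3a1 and Col6a1 are shown because these 3 genes hold different motifs there. Windows of 250 bases before the RefSeq start (GRCm38.p6) were found for 35 of the 44 genes and searched on both strands for the letters CCAAT (the CCAAT box), for GGGCGG (the GC box) and for TATAAA (the TATA box). None of these overlap within a window shown, and capitals mark the matches. Col1a2 (chr6:4505368-4505617, plus strand) held 1 CCAAT box and 2 GC boxes, Col3a1 (chr1:45311288-45311537, plus strand) held 1 TATA box only, and Col6a1 (chr10:76726045-76726294, minus strand) held none of the 3 motifs.
Col1a2: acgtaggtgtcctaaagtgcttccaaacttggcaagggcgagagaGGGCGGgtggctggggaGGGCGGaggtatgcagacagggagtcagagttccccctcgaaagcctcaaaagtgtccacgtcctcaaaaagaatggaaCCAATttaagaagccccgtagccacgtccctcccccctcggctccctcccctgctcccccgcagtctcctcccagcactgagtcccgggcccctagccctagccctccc
Col3a1: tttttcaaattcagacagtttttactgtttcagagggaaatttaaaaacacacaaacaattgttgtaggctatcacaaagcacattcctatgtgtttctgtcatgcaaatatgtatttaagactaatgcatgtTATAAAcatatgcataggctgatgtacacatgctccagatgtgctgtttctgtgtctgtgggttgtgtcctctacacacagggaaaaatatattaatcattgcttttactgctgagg
Col6a1: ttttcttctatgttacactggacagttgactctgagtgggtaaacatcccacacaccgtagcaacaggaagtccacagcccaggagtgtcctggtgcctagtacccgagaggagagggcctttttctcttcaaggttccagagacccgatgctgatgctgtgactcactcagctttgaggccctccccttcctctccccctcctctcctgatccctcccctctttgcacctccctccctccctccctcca
GC content was 62% in the Col1a2 window and 35.2% in that of Col3a1. Over the 38 collagen windows, 34.2% held the CCAAT box, 57.9% the GC box and 13.2% the TATA box, against 33.8%, 32.7% and 12.4% of 32851 windows of the same length over all genes. The median GC content was 59% over the collagen windows and 52.4% over all windows, and the GC box shares were not adjusted for it. A match describes letters only, and none of these shares was tested.

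Type V chains, enter type I fibrils and limit their width. Col5a3 read 6.76, 6.11 and 6.12 in WT and 6.55, 6.50 and 6.86 in Tg and had the widest fibrillar difference, 0.31 ± 0.21 (adjusted p = 0.65 in limma). Col5a1 (6.998, 6.63 and 6.65 in WT, 6.89, 6.70 and 7.01 in Tg) differed by 0.11 ± 0.14. Col5a2 (7.22, 6.92 and 6.83 in WT, 6.93, 7.07 and 7.24 in Tg) differed by 0.09 ± 0.14. In all 3 genes WT 1 stood above the other WT arrays and within or near the Tg range, as in the type I and III genes.

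Col27a1 (3.43, 3.29 and 3.56 in WT, 3.57, 3.40 and 3.25 in Tg) differed by -0.02 ± 0.13. The cartilage genes Col2a1, Col11a1 and Col11a2 and the gene Col24a1 were dim, with means between 1.42 and 1.96. Col2a1 was the fibrillar gene whose groups did not overlap, at 1.95, 1.71 and 1.84 in WT and 2.02, 2.25 and 2.00 in Tg, but the gap between the groups was 0.048 on the log2 scale.

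The order of the WT mice recurred across the family. Over the 25 brighter collagen genes, WT 1 was the highest of the 3 WT arrays in 21, where 38.8% of the 12788 brighter genes had WT 1 on top. The range within WT exceeded the range within Tg in 20 of the 25, against 50.5% of the brighter genes, and its median was 0.45 in WT and 0.29 in Tg (0.25 and 0.25 over all brighter genes). In 22 of the 25 the WT range was larger than the difference between the genotypes. The mean of the 7 brighter fibrillar genes, each taken relative to its own mean, stood at 0.21 for WT 1, -0.20 for WT 2 and -0.21 for WT 3, and at -0.02, 0.06 and 0.16 for the Tg arrays. Without WT 1, the groups did not overlap in 25 of the 44 genes, 19 higher and 6 lower (56.8%). Of all rows 14% stood higher and 17.2% lower, 31.2% together. Without WT 2 or WT 3 the count was 13 or 15, with 25.3% of all rows apart. WT 1 was singled out after it was seen to stand highest in WT. Leaving it out raises Tg minus WT in such genes by arithmetic, and keeping it as the only WT array lowers it. Neither choice is a test of genotype. Without WT 1, Col1a1 differed by 0.41, Col3a1 by 0.28 and Col1a2 by 0.28. With WT 1 alone against Tg 1 and Tg 3 they differed by -0.30, -0.20 and -0.23. The sign of these 3 differences thus turned with the choice of arrays.

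**Figure D2:**
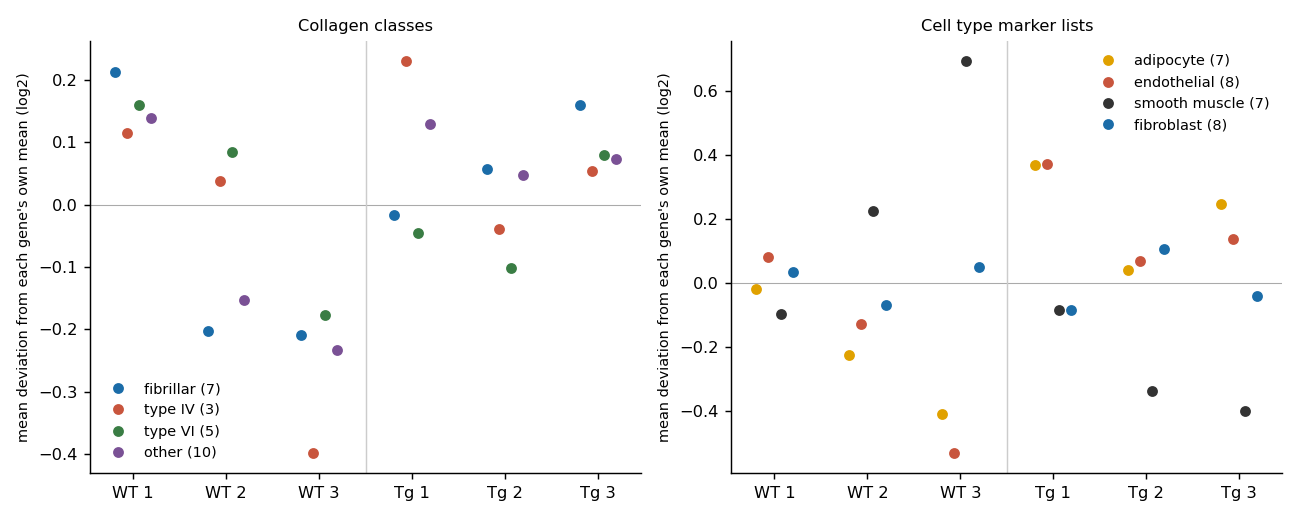
Mean deviation of a class on each array (vertical axis, log2, each gene relative to its own mean over the 6 arrays), with the brighter collagen genes by class on the left and 4 marker lists on the right; numbers in brackets are genes per list. The fibrillar class is highest in WT 1 and lowest in WT 2 and WT 3, while type IV is lowest in WT 3 at -0.40 and highest in Tg 1 at 0.23.

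The marker lists moved as follows on the same arrays. Adipocyte genes (7 of 8 listed were measured) averaged -0.02, -0.22 and -0.41 over the WT arrays relative to their means. Over the Tg arrays they averaged 0.37, 0.04 and 0.25. All 7 were higher in Tg, where 46.3% of all genes above the median signal were. Endothelial genes (8 of 8) averaged 0.08, -0.13 and -0.53 in WT and 0.37, 0.07 and 0.14 in Tg. Smooth muscle genes (7 of 7) averaged -0.10, 0.22 and 0.69 in WT and -0.08, -0.34 and -0.40 in Tg. Fibroblast and progenitor genes (8 of 10) stayed between -0.08 and 0.11, with 3 of 8 higher in Tg. WT 2 and WT 3, where fibrillar genes were low, were thus low in adipocyte and endothelial genes. The high smooth muscle means of those arrays came with high Cnn1, Myh11 and Des and low Rgs5 and Notch3. The fibroblast markers did not follow the order of the fibrillar genes. The part of these cell types in the collagen values was not tested.

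Among the type IV genes, Col4a1 and Col4a2, the pair of nearly all basement membranes, had like differences, and neither differed beyond the spread of the WT mice. Of 6 genes 5 were higher and 1 lower in Tg, with a median difference of 0.21. Col4a1 read 8.37, 8.17 and 7.88 in WT and 8.40, 8.30 and 8.45 in Tg, a difference of 0.24 ± 0.15 (95% interval from -0.11 to 0.59; adjusted p = 0.61 in limma). Col4a2 read 8.13, 8.01 and 7.69 in WT and 8.36, 8.03 and 8.19 in Tg, a difference of 0.25 ± 0.15. In both genes WT 3 was the lowest array and the Tg arrays overlapped WT 1. Without WT 3 the differences were 0.11 and 0.12. WT 3 was also the lowest array in the endothelial markers (-0.53) and in the adipocyte markers (-0.41). Endothelial cells are among the makers of these chains, and the part of either cell type was not tested.

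Col4a1 and Col4a2 lie head to head as neighbours on chromosome 8, and their RefSeq starts (GRCm38.p6) leave 22 bases that both models cover, chr8:11312805-11312826, shown on the plus strand because the pair had like values.
Col4a2 and Col4a1, shared start bases: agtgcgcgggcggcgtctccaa
Col4a5 and Col4a6 are the same kind of head-to-head pair on chromosome X, with 1342 bases between their starts. Both had overlapping groups. Col4a5 read 4.51, 4.60 and 3.91 in WT and 4.60, 4.23 and 4.19 in Tg and differed by 0.00 ± 0.22. Col4a6 read 2.86, 2.46 and 2.69 in WT and 2.54, 2.45 and 2.36 in Tg and differed by -0.22 ± 0.13.

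Col4a3 and Col4a4, neighbours on chromosome 1 known from the filtering membrane of the kidney, were dim. Col4a4 read 2.11, 2.17 and 2.39 in WT and 2.73, 2.63 and 2.65 in Tg, so the groups stood apart, with a difference of 0.45 ± 0.11 (adjusted p = 0.35 in limma). It lay between 0.39 and 0.58 under every alternative tried. The group means were 2.22 and 2.67, the latter level with the median signal of all rows. Col4a3 read 2.15, 2.30 and 2.23 in WT and 2.79, 2.19 and 2.23 in Tg, with Tg 1 alone high.

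Type VI genes differed in both directions, and none passed the adjusted test. The neighbours Col6a1 and Col6a2 were higher in Tg, while the genes of the alternative chains related to Col6a3, namely Col6a5, Col6a6 and Col6a4, were lower, and Col6a3 differed by less than its SE. The median over the 6 genes was -0.17, with 2 higher and 4 lower. Col6a5 had the smallest p of the class, at 8.30, 8.37 and 8.24 in WT and 8.07, 7.84 and 7.86 in Tg. Every Tg array lay below every WT array by at least 0.17, and the WT values spread over 0.13 only. The difference was -0.38 ± 0.11 (1.30-fold lower, 95% interval from -0.64 to -0.12; adjusted p = 0.37 in limma), and it stayed between -0.45 and -0.31 under every alternative tried.

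Col6a6, next to Col6a5 on chromosome 9, read 6.75, 6.69 and 6.36 in WT and 6.04, 6.31 and 6.53 in Tg. WT 3 lay inside the Tg range, and the difference was -0.30 ± 0.17 (adjusted p = 0.58 in limma). Col6a4, on the other side of Col6a5, was dim at 1.57, 1.77 and 1.33 in WT and 1.34, 1.55 and 0.95 in Tg, a difference of -0.27 ± 0.19. All 3 neighbours on chromosome 9 were lower in Tg under every alternative tried, though only Col6a5 had groups apart. Genes of a family can share probe sequence, and this was not checked.

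On chromosome 10, Col6a1 read 10.08, 9.999 and 9.63 in WT and 10.09, 10.08 and 10.25 in Tg. Its groups did not overlap, but the gap was 0.0038, and the difference of 0.24 ± 0.14 was smaller than the WT range of 0.45. Col6a2 read 9.27, 8.99 and 8.82 in WT and 9.42, 9.11 and 9.41 in Tg, a difference of 0.29 ± 0.16 with Tg 2 below WT 1. With Tg 1 and Tg 3 set against WT 1 alone, the differences were 0.09 and 0.14. A second, dimmer row of Col6a1 read 5.86, 4.53 and 4.70 in WT and 5.53, 6.60 and 5.71 in Tg, with Tg 2 on top as in the second row of Col1a2, and the mean of both Col6a1 rows differed by 0.58. One more row, which names other genes too, differed by -0.09 ± 0.12.

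Col6a3, the large chain that yields the fragment endotrophin, read 7.99, 7.94 and 7.65 in WT and 7.74, 7.72 and 7.93 in Tg. The difference was -0.06 ± 0.13 (95% interval from -0.38 to 0.25), and the groups overlapped. It was 0.002 after median centring of the arrays.

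**Figure D3:**
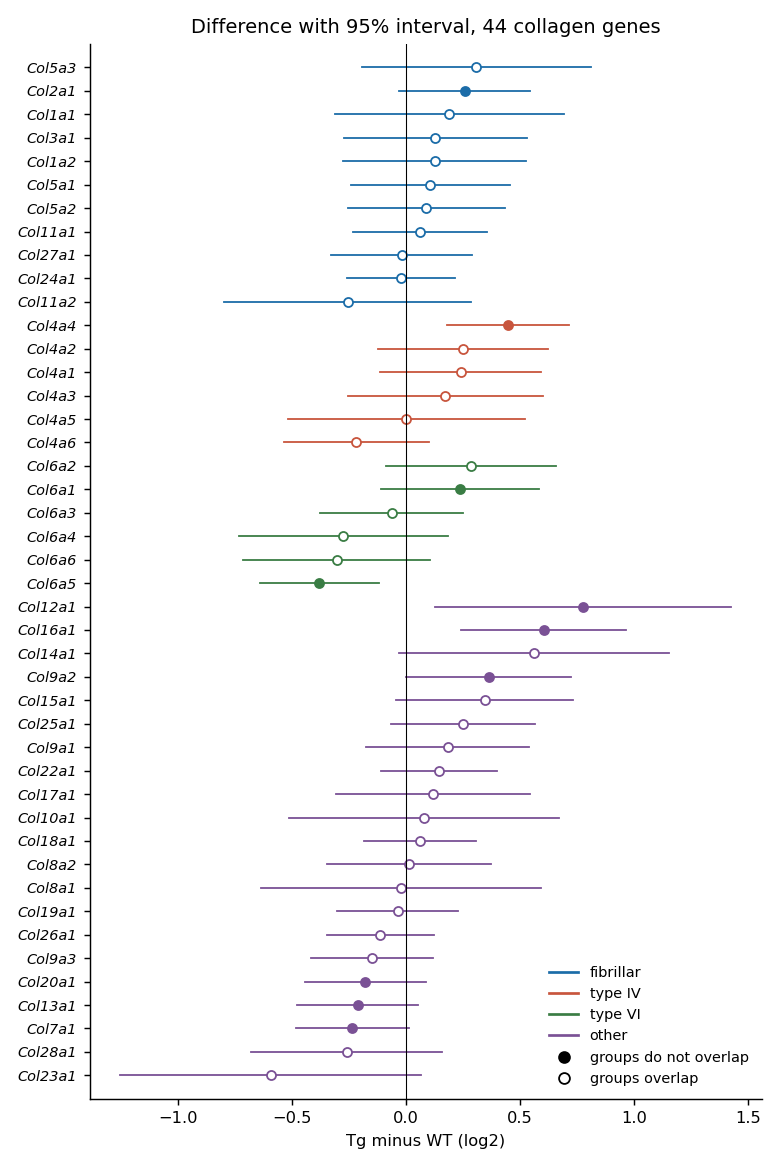
Difference of Tg from WT (log2, horizontal axis) with its 95% interval from limma for each of the 44 collagen genes, coloured by class; filled points mark genes whose groups did not overlap. The filled points fall on both sides of 0, 6 to the right and 4 to the left.

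The other collagens held the widest differences of the family. Groups stood apart in 6 of the 21 genes (28.6%, against 16.7% of all rows), and in 4 of the 10 above the median signal, where 23.8% of all such genes did so. Of the 21 genes 12 were higher and 9 lower, with a median of 0.06. They are described by structural subfamily, beginning with the fibril-associated collagens, which sit on the surface of fibrils and link them to other matrix proteins. Of 9 such genes 6 were higher and 3 lower, with a median of 0.18.

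Col12a1, a fibril-associated collagen of stretched connective tissue, read 6.18, 5.44 and 5.12 in WT and 6.39, 6.49 and 6.19 in Tg. The Tg arrays stood above the WT arrays, by a gap of 0.0096. The difference of 0.78 ± 0.27 (1.71-fold; adjusted p = 0.43 in limma) was the largest of the family, and it was 1.08 without WT 1 and 0.11 with WT 1 alone against Tg 1 and Tg 3. Col14a1, its close relative, read 7.83, 6.96 and 6.95 in WT and 7.92, 7.75 and 7.76 in Tg. Its difference was 0.56 ± 0.25, but WT 1 lay inside the Tg range and against WT 1 alone the difference was 0.01. In both genes the 3 Tg arrays and WT 1 were close together and WT 2 and WT 3 were low.

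Col16a1, a minor fibril-associated collagen, was the gene of the class with the smallest p. It read 3.79, 3.38 and 3.53 in WT and 4.37, 4.07 and 4.06 in Tg, with a gap of 0.27 between the groups. The difference was 0.60 ± 0.15 (1.52-fold, 95% interval from 0.24 to 0.96; adjusted p = 0.35 in limma). It stayed between 0.43 and 0.71 under every alternative tried, and was 0.43 against WT 1 alone. As in Col12a1 and Col14a1, WT 1 was the highest WT array, but in Col16a1 it lay 0.27 below the lowest Tg array. The range within WT was 0.41.

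Col9a2 (3.13, 2.64 and 2.90 in WT, 3.14, 3.25 and 3.37 in Tg), a chain known from cartilage, differed by 0.36 ± 0.15 with groups apart by 0.0067. Col20a1 (3.27, 3.12 and 3.03 in WT, 3.001, 3.02 and 2.86 in Tg) was lower by -0.18 ± 0.11, with groups apart by 0.0052. The dim genes Col9a1, Col9a3, Col19a1 and Col22a1 differed by 0.18, -0.15, -0.04 and 0.14, all with overlapping groups.

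The multiplexins, which lie in the zone of the basement membrane, comprise Col15a1 and Col18a1. Col15a1 read 8.23, 8.07 and 7.71 in WT and 8.18, 8.39 and 8.47 in Tg, a difference of 0.34 ± 0.16 (adjusted p = 0.52 in limma) with Tg 1 just below WT 1. Col18a1, which yields the fragment endostatin, read 6.37, 6.21 and 6.23 in WT and 6.43, 6.25 and 6.32 in Tg. The groups overlapped, with a difference of 0.06 ± 0.10 (95% interval from -0.19 to 0.31).

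Col8a1, a short-chain collagen of vessel walls, was high in WT 1. It read 7.24 in WT 1, 6.32 and 6.35 in WT 2 and WT 3, and 6.50, 6.66 and 6.70 in Tg. The difference over all arrays was -0.02 ± 0.26, 0.28 without WT 1 and -0.64 with WT 1 alone against Tg 1 and Tg 3. The other short-chain genes Col8a2 and Col10a1, the latter of growth plate cartilage, were dim and differed by 0.01 ± 0.15 and 0.08 ± 0.25.

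Col23a1, a transmembrane collagen, had the widest difference downward. It read 3.80, 4.90 and 4.46 in WT and 3.80, 3.63 and 3.94 in Tg, so WT 2 and WT 3 were high and WT 1 lay within the Tg range. The difference was -0.59 ± 0.27 (adjusted p = 0.52 in limma), and against WT 1 alone it was 0.07. WT 2 and WT 3 were also the highest arrays in 3 of the 7 smooth muscle and pericyte markers, Cnn1, Myh11 and Des, and the lowest in Rgs5 and Notch3, while Acta2 and Tagln did not separate them. The mean of the 7 was 7.77 in WT 2 and 8.24 in WT 3, and between 7.14 and 7.46 on the other arrays. The part of those cells in the Col23a1 signal was not tested.

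Col28a1, a gene known from peripheral nerve, read 4.73, 4.60 and 4.55 in WT and 4.74, 4.13 and 4.24 in Tg, with Tg 1 level with WT 1, and differed by -0.26 ± 0.17. Of the dim genes left, Col7a1, whose protein anchors the epidermis, and the transmembrane Col13a1 had groups apart, lower in Tg by -0.23 ± 0.10 and -0.21 ± 0.11. Col17a1, Col25a1 and Col26a1 differed by 0.12, 0.25 and -0.11, with overlapping groups. Their means lay between 2.09 and 2.19, below the median signal.

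Genes that make, process and bind collagen were set beside the chains, in lists drawn up with earlier results of these data known. No gene of any list passed an adjusted p of 0.05 in limma (0 of 77 measured genes), and 13 had an unadjusted p under 0.05, 11 higher and 2 lower (16.9%). Of all rows 4.43% were higher and 5.88% lower at that level, 10.3% together. Of all genes above the median signal 13.5% reached it in either direction. Without regard to p, 46.3% of the genes above the median signal were higher in Tg. That share stands beside the direction counts of the lists, whose genes are not independent. For folding and secretion 22 of 24 genes were measured, of which 12 were higher and 10 lower with a median of 0.04. Creb3l1, a transcription factor known to act on collagen secretion, read 7.14, 6.61 and 6.68 in WT and 7.35, 7.92 and 7.56 in Tg, a difference of 0.80 ± 0.20 (adjusted p = 0.35 in limma) with groups apart. Serpinh1, the collagen chaperone of the endoplasmic reticulum, read 7.47, 7.24 and 7.17 in WT and 7.60, 7.57 and 7.59 in Tg. Its difference was 0.30 ± 0.11, with the 3 Tg arrays close together.

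The prolyl 3-hydroxylase genes P3h2 (0.49 ± 0.15) and P3h1 (0.29 ± 0.12) were higher with groups apart. P4ha1, a catalytic subunit of the prolyl 4-hydroxylase that stabilises the helix, read 7.79, 7.77 and 7.87 in WT and 7.62, 7.60 and 7.58 in Tg. It was lower by -0.21 ± 0.09, with groups apart. Plod2, a lysyl hydroxylase for cross-links, differed by -0.19 ± 0.17. The enzymes of the chain's maturation therefore pointed in both directions.

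In processing and cross-linking 13 of 15 genes were measured, 11 higher and 2 lower, with a median of 0.19. The procollagen C-proteinase enhancers, which speed removal of the propeptide, differed in direction. Pcolce2 read 8.21, 8.00 and 7.78 in WT and 8.58, 8.62 and 8.50 in Tg (0.57 ± 0.13, adjusted p = 0.33 in limma), and Pcolce read 6.55, 6.25 and 6.25 in WT and 6.08, 5.91 and 5.88 in Tg (-0.39 ± 0.13, adjusted p = 0.40). Both had groups apart, and both kept their sign against WT 1 alone, at 0.34 and -0.57. Sparc, a collagen-binding glycoprotein, was higher by 0.34 ± 0.11 with groups apart, and Lox, the main cross-linking oxidase, read 9.004, 8.72 and 8.26 in WT and 9.09, 9.16 and 9.02 in Tg (0.43 ± 0.19, and 0.05 against WT 1 alone). The dim Tll2 differed by 0.31 ± 0.13.

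**Figure D4:**
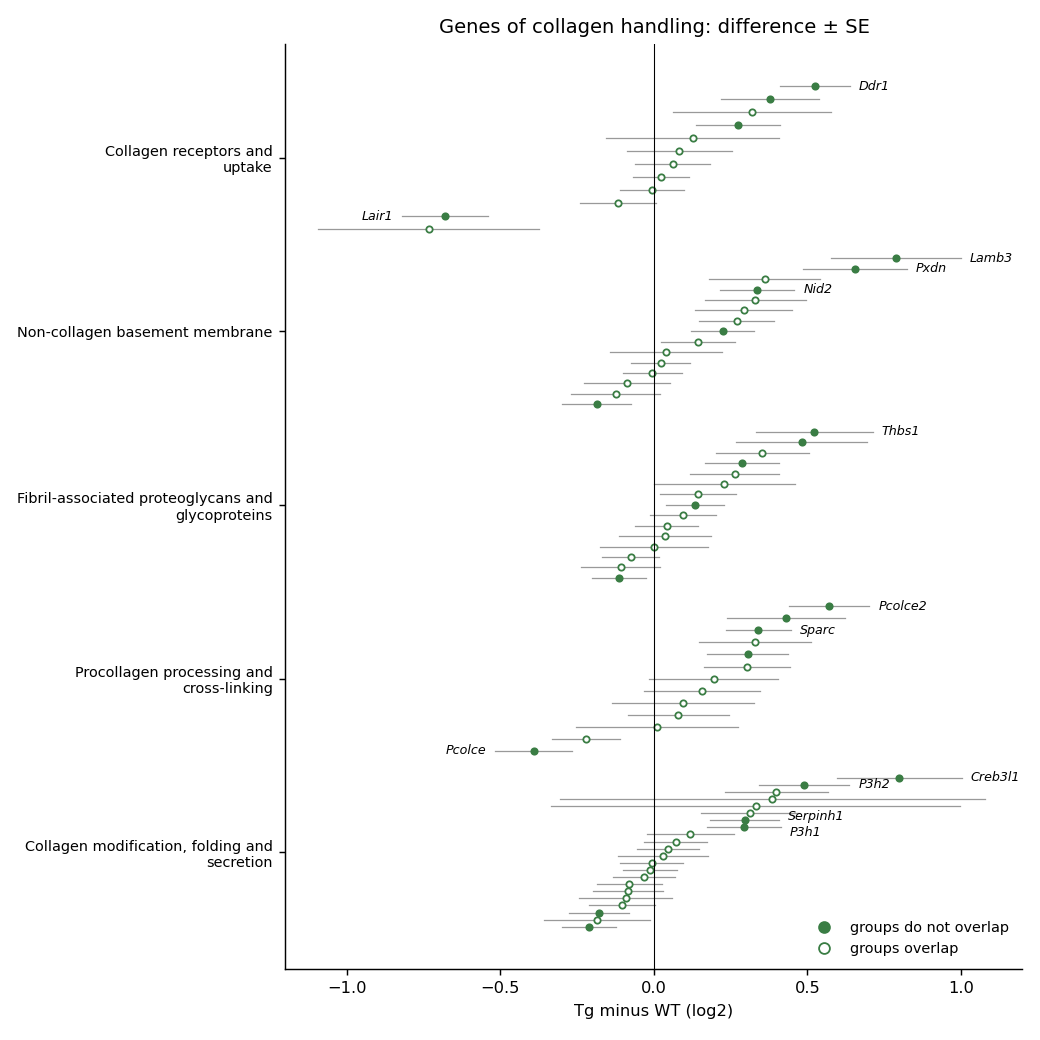
Difference of Tg from WT (log2, Tg minus WT) with its SE (horizontal axis) for 77 measured genes of collagen handling in 5 lists (vertical axis); filled points mark genes whose groups did not overlap, and names are given where the unadjusted p was under 0.05. Pcolce and Lair1 are the named genes to the left of 0, and the other 11 lie to the right.

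Proteins that bind fibrils were higher in 12 of 15 genes, with a median of 0.13. Of all genes above the median signal 46.3% were higher. Thbs1 (0.52 ± 0.19), Prelp (0.29 ± 0.12), Fmod (0.48 ± 0.21) and Ogn (0.13 ± 0.09) were higher with groups apart. Dcn (-0.11 ± 0.09) was lower with groups apart, and Aspn (0.35 ± 0.15) overlapped. Second rows above the median signal differed by 0.88 ± 0.20 for Prelp with groups apart. Those of Fmod and Bgn differed by 1.05 ± 0.43 and 0.52 ± 0.33 with overlap. In each of these second rows Tg 2, the array with epididymis transcripts, was highest and WT 2 lowest, as in those of Col1a2 and Col6a1. Laminins and other basement membrane proteins were higher in 11 of 15, with a median of 0.22, close to the 0.21 of the type IV genes. Pxdn, the peroxidase that cross-links type IV collagen, read 7.94, 7.67 and 7.44 in WT and 8.52, 8.13 and 8.36 in Tg. The difference was 0.66 ± 0.17 (1.57-fold; adjusted p = 0.35 in limma), with groups apart and 0.51 against WT 1 alone. Lamb3 (0.79 ± 0.21), Nid2 (0.34 ± 0.12) and Agrn (0.22 ± 0.10) were higher with groups apart. Lama2 (-0.19 ± 0.11) was lower with groups apart, and Nid1 (0.27 ± 0.12) overlapped. A second Nid1 row differed by 0.40 ± 0.13 with groups apart.

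Of the collagen receptors 12 of 13 were measured, 8 higher and 4 lower, with a median of 0.07. Ddr1, a receptor tyrosine kinase for collagen, read 6.73, 6.52 and 6.41 in WT and 7.11, 7.07 and 7.06 in Tg, a difference of 0.52 ± 0.11 (adjusted p = 0.33 in limma), while a dim second row read -0.22 ± 0.13. Lair1, an inhibitory collagen receptor of immune cells, read 8.23, 8.43 and 8.53 in WT and 7.50, 7.80 and 7.85 in Tg, lower by -0.68 ± 0.14 (adjusted p = 0.33). The 8 macrophage markers were lower in Tg too, by a median of -0.25 and with groups apart in 7, where 12.8% of all genes above the median signal were apart and lower; their part in the Lair1 value was not tested. The integrin genes Itga1 and Itga2 differed by 0.38 ± 0.16 and -0.73 ± 0.36, the latter with 4.41 in WT 2, 5.23 in WT 3 and no more than 3.88 on any other array.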

How the data were processed

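Per the labels, total RNA of 6 fat pads was hybridised to Affymetrix arrays that cover whole transcripts. The deposited table holds 1 log2 value per row and array; RMA (background correction, normalization between arrays and probe summary) and limma are named in the submitters' processing notes, with versions, settings and build not given in the sources used here. Such values do not show a shift in the amount of RNA as a whole. The platform annotation names 1 gene for 23521 of 41345 rows, several for 1814 and none for 16010. Symbols, synonyms and neighbours came from RefSeq (GRCm38.p6), in which all 44 members were found. Tg was compared with WT over all rows with limma 3.58.1 in R 4.3.3 (lmFit, eBayes, 2-sided, Benjamini-Hochberg over 41345 rows, no filter). SE and 95% intervals are the fit's. With 3 arrays a side the smallest p of an exact permutation test is 0.1, so none was run. The number of arrays limits the precision. On simulated rows, 62% of 100 rows changed 2-fold and 94% of 100 changed 4-fold were recovered, with 11 false calls among 41345 rows. The changed rows were drawn at random, with independent normal noise of each row's fitted spread and no effect shared by the rows of an array. These shares therefore do not give the power for the collagen genes, which moved together on the arrays.

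The members, lists, tests and alternatives were chosen with earlier results of these data known. All members are named. Signals of every array were to be given for fibrillar, type IV and type VI members above the median of row means, for the 8 other members of highest mean and for others above it whose groups do not overlap; of each companion list the 4 genes of smallest p are named, with Lox, Serpinh1, Sparc, Pcolce, P4ha1 and Plod2. Col2a1, Col4a3, Col4a4, Col4a6 and Col6a4 are given by array as well, chosen after their values were seen. Ogn, Dcn, Agrn and Lama2 are named too because their groups stood apart. List genes not matched to a row of their own were not analysed here.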

Additional observations from a re-analysis of the deposited data

How the results depend on the processing

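Under all alternatives with more than 1 array per group, limma called 0 rows at an adjusted p of 0.05. The alternatives were followed for 67 collagen and companion genes, whose smallest adjusted p in limma was 0.16. Marker genes were not among them. Of the 44 collagen genes 25 kept their sign under every alternative, 14 of them among the 25 brighter ones. Some alternatives, such as the replicate block and the filter of dim rows, leave a difference as it was and could not turn a sign. The filter also drops the 19 dim genes. The labels do not state that the replicate number pairs mice. Same-numbered arrays correlated by -0.04, 0.01 and -0.04 in their deviations from the group means. With so few arrays this cannot show whether mice were paired. With the number as a replicate block in limma, 5 collagen genes had an unadjusted p under 0.05, the count found without it. That count was 8 with median centring (10.8% of all rows reached that p), 2 with WT 1, Tg 1 and Tg 3 alone (5.43% of rows), and 3 to 12 when each array was left out (7.51% to 12.3% of rows), highest without WT 1. The count of genes with groups apart was 13 to 25 with an array left out (25.3% to 31.2% of all rows), 6 of the 25 genes left when dim rows were filtered (22.1% of rows) and 30 with those 3 arrays, where 67.7% of all rows were apart because WT is a single array. The median difference with those 3 arrays was -0.032 over all members and -0.13 for fibrillar genes. The type IV median ran from 0.072 to 0.28 with an array left out, lowest without Tg 1. With dim rows filtered, and so fewer genes, the median of the other types was 0.20.

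Signs turned as follows. With WT 1, Tg 1 and Tg 3 alone, Col3a1 read -0.20, Col1a1 -0.30, Col1a2 -0.23, Col5a2 -0.13, Col5a1 -0.046, Col5a3 -0.055, Col11a1 -0.077, Col4a5 -0.11, Col23a1 0.071, Col26a1 0.0043, Col8a2 -0.079 and Itga2 0.015. Median centring gave 0.046 for Col27a1, 0.043 for Col24a1, 0.0023 for Col6a3, 0.044 for Col8a1 and 0.030 for Col19a1. Quantile normalization gave 0.062 for Col27a1 and 0.0040 for Col24a1, cyclic loess 0.027 for Col27a1 and 0.0012 for Col8a1, and array weights -0.060 for Col4a5 and 0.042 for Col8a1. Leaving out each array in turn gave ranges of -0.0022 to 0.28 for Col3a1, -0.10 to 0.059 for Col27a1, -0.063 to 0.036 for Col24a1, -0.21 to 0.13 for Col4a5, -0.022 to 0.28 for Col4a3, -0.17 to 0.00071 for Col6a3, -0.18 to 0.28 for Col8a1, -0.045 to 0.25 for Col17a1, -0.14 to 0.35 for Col10a1, -0.10 to 0.10 for Col8a2 and -0.083 to 0.039 for Col19a1. The cause of these turns was not tested.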
